A study of Mus musculus with 6 samples.

Results

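The genes S100a8, S100a9, Csf3r, Mmp8, Mmp9, Retnlg, Ly6g, Il1r2, Trem1 and Hdc are 10 of the 32212 rows of the deposited liver count table, picked by symbol as genes of mature neutrophils rather than of their marrow precursors. They were compared between the livers of 3 wild-type (WT) and 3 chromogranin A knockout (CgA-KO) mice, with 1 library per mouse. Every mouse was a male on the C57BL/6 background, was fed chow and was 2 yr old. The WT mice carry an intact Chga gene, and the CgA-KO mice lack it in the whole body, so no liver cell type was targeted. Livers were sampled whole, and the sources used here do not say that the pieces taken for RNA were flushed of blood.

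Neutrophils are short-lived white blood cells that are made in the marrow, circulate in blood and enter tissue when attractants call them. A neutrophil precursor fills its granules in stages, so mRNAs of the early granule proteins such as myeloperoxidase are found mainly in the marrow, while the mature cell carries mRNAs of calprotectin, gelatinase-type enzymes and surface receptors. In liver, neutrophils pass through the sinusoids beside Kupffer cells, the resident macrophages, and other white cells share part of their genes: monocytes carry S100a8 and S100a9, and mast cells and basophils carry Hdc. In a piece of whole liver, more cells of a type and more RNA per cell cannot be told apart.

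The libraries held from 10558616 to 31087453 counts in WT and from 19223595 to 28672817 in CgA-KO. Levels are given as CPM, counts relative to a library size scaled with edgeR's TMM factors, and 3 counts, taken as the limit of detection, correspond to 0.0951 to 0.269 CPM depending on the library. That limit and all counting intervals cover counting error only. The genotypes were compared with edgeR's quasi-likelihood test, two-sided, with Benjamini-Hochberg adjustment over 13867 genes and a call at an adjusted p under 0.05. It called 8.60% of those genes higher and 3.84% lower in CgA-KO, and the median log2 fold change of all of them was -0.01. Chga had 0 counts in all 6 libraries, so it does not check the genotype labels. Each library is a separate mouse, and with 3 against 3 an exact permutation test of a single gene cannot give a p under 0.1.

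All 10 genes are annotated as protein-coding in the GENCODE annotation of the mouse build GRCm38. S100a8 (chromosome 3, 90668978 to 90670035, plus strand) and S100a9 (chromosome 3, 90692632 to 90695721, minus strand) are neighbours with 22596 bases between them. Promoter sequences were taken from RefSeq on GRCm38.p6 for the calprotectin pair and Mmp8, because these were the tested members whose level differed most within the CgA-KO livers and they hold matches to motifs of PU.1 and C/EBP, factors of the granulocyte lineage. Of the 10 genes, 9 had an entry in the promoter table. The bases before the RefSeq gene start (position -1 is the last of them) were searched on both strands for GAGGAA, the core of PU.1 sites, and TTNNGCAA, a C/EBP motif, which do not overlap each other in the sequences shown. Capitals mark a match, and a match on the other strand reads as its reverse complement. RefSeq starts S100a8 at 90669071, S100a9 at 90695721 and Mmp8 at 7558429. The printed sequence of S100a8 stops short of that start, where an annotated exon begins, while its position is still counted from 90669071.
S100a8, chr3:90668821-90668977, plus strand, PU.1 match at position -170: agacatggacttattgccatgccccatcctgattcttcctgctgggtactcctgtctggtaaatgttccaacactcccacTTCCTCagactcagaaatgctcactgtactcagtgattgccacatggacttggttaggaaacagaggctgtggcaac
S100a9, chr3:90695722-90695971, minus strand, C/EBP match at position -236: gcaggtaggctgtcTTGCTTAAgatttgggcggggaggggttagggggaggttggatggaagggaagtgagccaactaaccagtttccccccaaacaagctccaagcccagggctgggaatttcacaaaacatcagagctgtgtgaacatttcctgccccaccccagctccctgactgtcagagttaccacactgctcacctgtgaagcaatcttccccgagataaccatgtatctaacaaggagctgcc
Mmp8, chr9:7558179-7558428, plus strand, PU.1 match at position -219 and C/EBP match at position -19: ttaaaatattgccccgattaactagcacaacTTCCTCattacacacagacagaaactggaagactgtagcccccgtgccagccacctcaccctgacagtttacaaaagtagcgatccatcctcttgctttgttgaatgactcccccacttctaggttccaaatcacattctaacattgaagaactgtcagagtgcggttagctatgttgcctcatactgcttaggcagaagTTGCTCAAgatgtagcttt
GAGGAA was found within 250 bases before the start in 5 of the 9 members (Csf3r, Ly6g, Mmp8, S100a8 and Trem1) and in 25.9% of the 27025 genes in the promoter table. TTNNGCAA was found in 4 of the 9 (Ly6g, Mmp8, Retnlg and S100a9) and in 10.8% of the genes. A match describes the letters only.

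The calprotectin genes rose in CgA-KO livers and had the highest mean CPM of the members there, though not in WT, where Csf3r was above both. S100a8 and S100a9 encode the subunits of calprotectin, a calcium- and zinc-binding protein that makes up much of the neutrophil's cytosol. S100a8 was at 1.34, 2.60 and 1.10 CPM in WT replicates 1, 2 and 3 and at 10.3, 50.96 and 10.4 CPM in CgA-KO replicates 1, 2 and 3. Every CgA-KO liver lay above every WT liver, and CgA-KO replicate 2 stood 4.93-fold over the mean of the other two. The means were 1.68 ± 0.802 CPM (SD, n = 3) and 23.9 ± 23.5 CPM (SD, n = 3), and edgeR gave a log2 fold change of 3.81 with a standard error (SE) of 0.703 and an adjusted p of 0.0125. S100a9 was at 1.61, 6.64 and 1.23 CPM in WT and at 15.6, 81.5 and 16.9 CPM in CgA-KO. Again the groups did not overlap, and the same library of each genotype, replicate 2, was the highest. edgeR's log2 fold change for it was 3.55 (SE 0.824, edgeR adjusted p = 0.0257).

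Both subunits kept a like proportion in the CgA-KO livers. Of the counts of the pair, S100a8 made up 39.6%, 38.5% and 38.1% in CgA-KO replicates 1, 2 and 3. The exact Clopper-Pearson 95% intervals of these shares were 35.5 to 43.8%, 37.0 to 39.98% and 34.2 to 42.1%. In WT replicates 1, 2 and 3 the share was 45.5%, 28.1% and 47.3%, with exact intervals of 28.1 to 63.6%, 22.2 to 34.6% and 33.7 to 61.2%. The interval of WT replicate 2 overlapped only those of CgA-KO replicate 3 and the other WT livers.

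**Figure D1:**
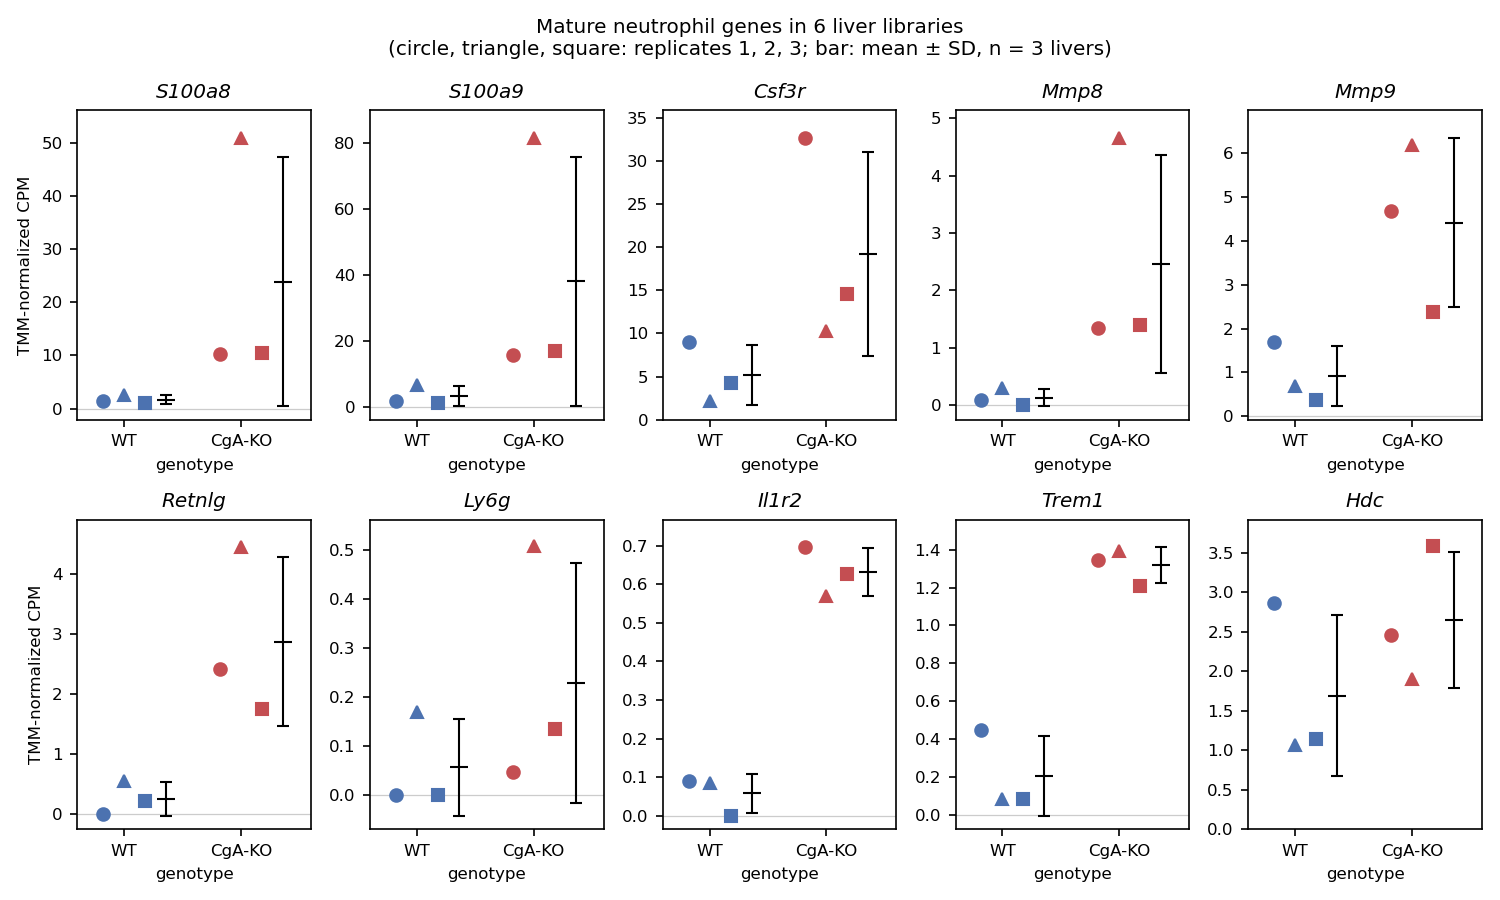
TMM-normalized CPM (vertical axes, linear, a separate scale per gene) of the 10 mature neutrophil genes in the 3 WT and 3 CgA-KO livers, with circle, triangle and square for replicates 1, 2 and 3 and bars for mean ± SD (n = 3). In 8 genes all CgA-KO points lie above all WT points, in Ly6g and Hdc the groups overlap, and in S100a8, S100a9 and Mmp8 CgA-KO replicate 2 lies far above the others.

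Among the secreted proteins of the granules, the enzymes Mmp8 and Mmp9 rose in CgA-KO. Mmp8, neutrophil collagenase, had 1, 7 and 0 counts in the WT libraries and 29, 147 and 31 counts in the CgA-KO libraries. That is 0.0896, 0.298 and 0 CPM against 1.35, 4.66 and 1.39 CPM, with no overlap. Mmp8 rose by 4.15 on the log2 scale (SE 0.933, edgeR adjusted p = 0.0233), and the pooled counts, 8 and 207, gave a CPM-scaled ratio of 20.0 with an exact 95% counting interval of 9.96 to 46.9. Mmp9, gelatinase B, was at 1.70, 0.681 and 0.381 CPM in WT and at 4.69, 6.18 and 2.38 CPM in CgA-KO. Here the lowest CgA-KO liver was above the highest WT liver and CgA-KO replicate 2 was 1.75-fold over the mean of the other two. Mmp9 rose by 2.35 on the log2 scale (SE 0.587, edgeR adjusted p = 0.0331).

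Retnlg, a resistin-like secreted protein of neutrophils, rose as well. It had 0, 13 and 5 counts in WT and 52, 140 and 39 counts in CgA-KO, or 0, 0.553 and 0.212 CPM against 2.41, 4.44 and 1.75 CPM. The genotypes did not overlap, and the log2 fold change was 3.30 (SE 0.746, edgeR adjusted p = 0.0237). Of the 31-base words of its transcripts, 5.51% also occur in other genes, mostly in its relative Retnla, so a small part of its counts could be misassigned.

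The receptors Il1r2 and Trem1 rose with little spread among the CgA-KO livers. Il1r2 is the decoy receptor that binds interleukin-1 without signalling. It had 1, 2 and 0 counts in WT and 15, 18 and 14 in CgA-KO, which is 0.0896, 0.0851 and 0 CPM against 0.696, 0.571 and 0.628 CPM. All WT values lay at or below the limit of 3 counts, and the 3 CgA-KO values lay close together. Il1r2 rose by 3.45 on the log2 scale (SE 0.789, edgeR adjusted p = 0.0245), and the ratio of the pooled counts, 3 and 47, was 12.1 (exact 95% counting interval 3.90 to 60.8).

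Trem1, which amplifies inflammatory signals through the adaptor Tyrobp, was at 0.448, 0.0851 and 0.0847 CPM in WT and at 1.35, 1.40 and 1.21 CPM in CgA-KO. The CgA-KO livers lay close together, at 1.32 ± 0.096 CPM (SD, n = 3), and WT replicate 1 was the highest WT liver. Trem1 rose by 2.91 on the log2 scale (SE 0.663, edgeR adjusted p = 0.0243).

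Csf3r, the receptor of granulocyte colony-stimulating factor (G-CSF), did not pass the test although its groups did not overlap. It was at 8.96, 2.17 and 4.28 CPM in WT and at 32.6, 10.3 and 14.6 CPM in CgA-KO. The highest liver was CgA-KO replicate 1, and the lowest CgA-KO liver, replicate 2, was close to WT replicate 1. Its difference was 1.93 on the log2 scale (SE 0.558, edgeR adjusted p = 0.0545). DESeq2, with 10.8% of its genes called higher, gave Csf3r an adjusted p of 0.00378. Of its 31-base words, 23.1% also occur in other annotated genes, mostly in a gene model that has no row in the count table, so its level is uncertain to that extent.

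Ly6g, the surface antigen by which mouse neutrophils are commonly sorted, was close to the limit of detection. It had 0, 4 and 0 counts in WT and 1, 16 and 3 counts in CgA-KO. The groups overlapped, with an exact permutation p of 0.3, and the filter on low counts removed the gene from the test. The pooled counts, 4 and 20, gave a ratio of 3.86 (exact 95% counting interval 1.29 to 15.5), and with every gene of at least 1 count kept, its log2 fold change was 1.79 (edgeR adjusted p = 0.429). Of its 31-base words, 9.55% occur in other genes, foremost in the neighbouring family member Ly6i.

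Hdc, histidine decarboxylase, makes histamine and is also a gene of mast cells and basophils. It was at 2.87, 1.06 and 1.14 CPM in WT and at 2.46, 1.90 and 3.59 CPM in CgA-KO. WT replicate 1 lay above CgA-KO replicates 1 and 2, so the groups overlapped, with an exact permutation p of 0.3. The log2 fold change was 0.69 (SE 0.481, edgeR adjusted p = 0.383).

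In all, edgeR called 7 of the 10 genes higher in CgA-KO (S100a8, S100a9, Mmp8, Mmp9, Retnlg, Il1r2 and Trem1) and 0 lower, beside 8.60% higher over all genes tested. Csf3r and Hdc were tested and not called, and Ly6g was not tested. The median log2 fold change of the 9 tested members was 3.30, beside -0.01 over all genes. The filter asked for about 0.436 CPM, before TMM scaling, in at least 3 libraries. Mmp8, Retnlg and Il1r2 passed it through the CgA-KO libraries alone. Trem1 reached that level in 1 WT library and Mmp9 in 2, so both also needed CgA-KO libraries to pass. A difference in any of these genes is thus partly a condition of being tested. In 8 of the 10 genes the genotypes did not overlap with CgA-KO higher, which held for 19.0% of all genes tested.

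The calls of single members rested on few livers. Without CgA-KO replicate 2, edgeR called 1 member higher, S100a8, beside 5.08% of all genes. The log2 fold changes then were 2.64 for S100a8 (edgeR adjusted p = 0.0192), 2.39 for S100a9 (edgeR adjusted p = 0.0706) and 3.33 for Mmp8 (edgeR adjusted p = 0.0759). Without WT replicate 3, edgeR called 0 members, beside 1.96% of all genes, and 7 members had an unadjusted p under 0.05, beside 12.3% of all genes. Without WT replicate 2 it called 2 members (3.31% of all genes), without CgA-KO replicate 1 it called 3 (4.22%), without CgA-KO replicate 3 it called 5 (6.72%) and without WT replicate 1 it called 6 (11.0%). The log2 fold change of each of the 9 tested members stayed above 0 in all 6 of these fits. For S100a8 it ranged from 2.64 to 4.31, for S100a9 from 2.39 to 4.77, for Mmp8 from 3.33 to 6.12, for Il1r2 from 2.78 to 4.14 and for Trem1 from 2.47 to 3.91. Among other tools, DESeq2 called 8 members higher and limma-voom called 5, beside 9.03% of all genes, with S100a8 and S100a9 both at an adjusted p of 0.0558 in limma-voom. With every gene of at least 1 count kept, edgeR called 5 members, beside 5.62% of all genes. With at least 10 counts required in every library, 4 members were left and 2 of them, S100a8 and S100a9, were called, beside 7.77% of all genes.

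**Figure D2:**
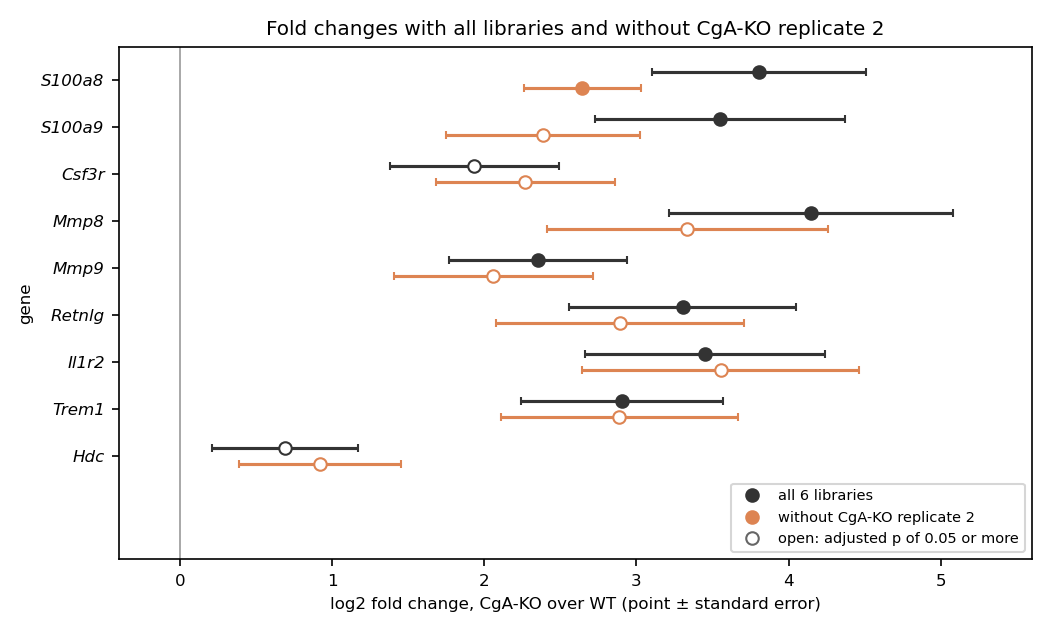
log2 fold change of CgA-KO over WT (horizontal axis) with its standard error for the 9 tested genes, from all 6 libraries and from the 5 without CgA-KO replicate 2, with open symbols where the edgeR adjusted p was not under 0.05. All points lie to the right of 0, and those of S100a8, S100a9 and Mmp8 move furthest to the left without that library, from 3.81 to 2.64, from 3.55 to 2.39 and from 4.15 to 3.33.

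The CgA-KO livers did not share the members equally. CgA-KO replicate 2 held 71.2% of the CPM summed over the 3 CgA-KO livers for S100a8, 71.5% for S100a9, 63.0% for Mmp8 and 73.7% for Ly6g. It held 51.6% for Retnlg and 46.7% for Mmp9. For Trem1 and Il1r2 it held 35.3% and 30.1%, close to an equal part. It held only 23.9% for Hdc and 17.9% for Csf3r. CgA-KO replicate 2 was the highest of all 6 livers for 7 members, CgA-KO replicate 1 for Csf3r and Il1r2, and CgA-KO replicate 3 for Hdc. The shares of all genes highest in each liver are not given here, so these counts are a description. Summed over the 10 genes, the level was 17.1, 14.3 and 8.43 CPM in WT and 71.5, 162 and 53.0 CPM in CgA-KO. Without the calprotectin pair the sums were 14.2, 5.11 and 6.10 CPM in WT and 45.6, 29.97 and 25.7 CPM in CgA-KO, and then CgA-KO replicate 1 was the highest.

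CgA-KO replicate 2 also held nearly all counts of 5 granule protein genes that are read in marrow precursors. Mpo, myeloperoxidase, had 0 counts in each WT library and 0, 2107 and 15 in CgA-KO replicates 1, 2 and 3. Elane, neutrophil elastase, had 1, 3 and 0 counts in WT and 3, 588 and 16 in CgA-KO. Ngp, a secondary granule protein, had 0, 6 and 0 counts in WT and 16, 2903 and 36 in CgA-KO, a difference of 8.21 on the log2 scale that did not pass the test (edgeR adjusted p = 0.0963). Ltf, lactoferrin, had 4, 3 and 2 counts against 5, 1221 and 24, and Camp, the cathelicidin precursor, had 2, 2 and 0 against 3, 598 and 31. Together these 5 genes stood at 0.627, 0.596 and 0.0847 CPM in WT and at 1.25, 235 and 5.47 CPM in CgA-KO. Of the 14 genes of the precursor list, 13 were highest in CgA-KO replicate 2, and 8 were not tested. Lcn2, the siderophore-binding lipocalin that liver cells also make, rose by 3.13 on the log2 scale (edgeR adjusted p = 0.0048), Chil3 rose by 6.67 (edgeR adjusted p = 0.0132), and Cebpe, a transcription factor of granule formation, fell by 1.14 (edgeR adjusted p = 0.0189). Chil3 passed the filter through the CgA-KO libraries alone. The part of precursor cells in the high S100a8, S100a9 and Mmp8 of that liver was not tested.

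**Figure D3:**
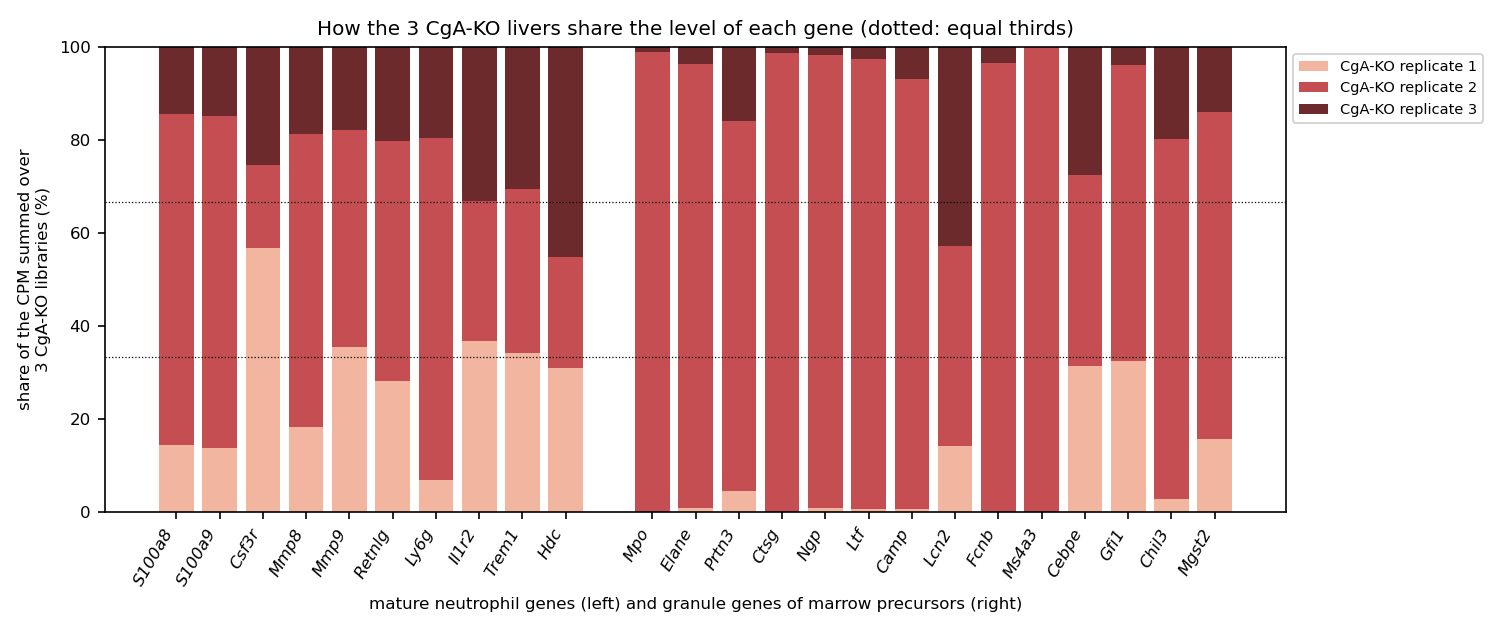
Share of each gene's CPM, summed over the 3 CgA-KO libraries, that each CgA-KO liver held (vertical axis, percent), for the mature neutrophil genes on the left and granule genes of marrow precursors on the right. CgA-KO replicate 2 holds 17.9% of Csf3r, 30.1% of Il1r2 and 71.5% of S100a9, and nearly all of Mpo, Elane, Ngp, Ltf and Camp.

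Markers of other leukocytes moved in the same direction as the members. Ptprc, the pan-leukocyte antigen CD45, had 262, 113 and 175 counts in WT and 1555, 2364 and 1120 counts in CgA-KO. It rose by 2.50 on the log2 scale (SE 0.520, edgeR adjusted p = 0.0179). The other 4 genes of the leukocyte list were also called higher, by 0.95 for Lcp1 up to 3.32 for Cd53, beside 8.60% of all genes tested. All 5 genes of that list summed to 101 to 139 CPM in WT and 359 to 564 CPM in CgA-KO. Ptprc was called without WT replicate 1 and without CgA-KO replicate 3, and not in the other 4 fits without 1 library, with a log2 difference of 2.12 to 3.46 and an adjusted p up to 0.134. Per count of Ptprc, the genotypes overlapped for 9 of the 10 members, with exact permutation p values from 0.3 to 1.0. The share of all genes that overlapped on this scale was not computed, so the count is a description and not a result about the members. S100a9 stood at 0.0687, 1.38 and 0.166 counts per Ptprc count in WT and at 0.217, 1.09 and 0.337 in CgA-KO. The highest of these ratios was that of WT replicate 2, a liver with few Ptprc counts. Csf3r stood at 0.382, 0.451 and 0.577 per Ptprc count in WT and at 0.451, 0.137 and 0.291 in CgA-KO. Hdc was the exception, at 0.122, 0.221 and 0.154 in WT and at 0.0341, 0.0254 and 0.0714 in CgA-KO, lower without overlap (exact permutation p = 0.1). Ptprc itself was higher in every CgA-KO liver than in any WT liver. A gene with a like level in both genotypes therefore comes out lower per Ptprc count in CgA-KO. In CPM, Hdc overlapped between the genotypes and was not called. All 10 members together stood at 0.729, 2.98 and 1.14 per unit of Ptprc in WT and at 0.990, 2.17 and 1.06 in CgA-KO.

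**Figure D4:**
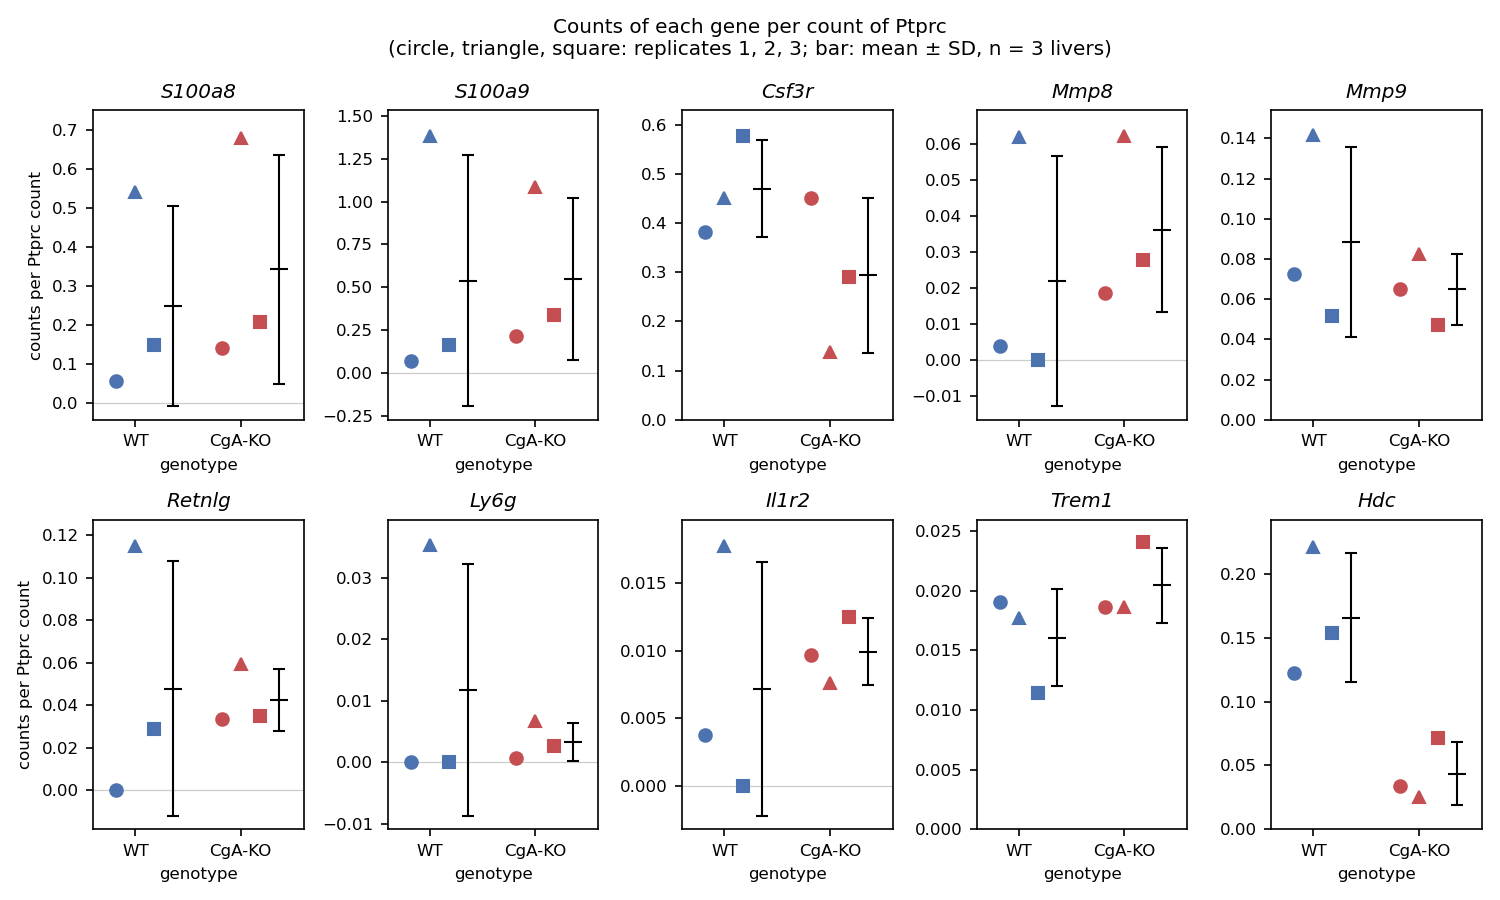
Counts of each of the 10 genes per count of Ptprc in the same library (vertical axes, linear, a separate scale per gene) in the WT and CgA-KO livers, with bars for mean ± SD (n = 3 livers). The genotypes overlap in every gene but Hdc, whose WT ratios of 0.122 to 0.221 lie above the CgA-KO ratios of 0.0254 to 0.0714. Ptprc itself is higher in every CgA-KO liver, so a gene with a like level in both genotypes has a lower ratio there.

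Of 20 other genes of neutrophils, 15 were tested, 8 were called higher, 0 lower, and the median log2 fold change of those tested was 3.09. The shares over all genes tested were 8.60% higher and 3.84% lower. As with the members, genes under the filter's level in WT libraries needed CgA-KO libraries to be tested. This bears on the calls and medians of this list and of the other companion lists. Slfn4 rose by 3.17 (edgeR adjusted p = 0.0043). The formyl peptide receptors, which sense bacterial peptides, rose by 3.41 for Fpr1 (edgeR adjusted p = 0.0115) and by 3.74 for Fpr2 (edgeR adjusted p = 0.0126). Cxcr2, the receptor by which neutrophils follow CXC chemokines, was at 1.97, 1.06 and 1.40 CPM in WT and at 3.95, 2.38 and 2.38 CPM in CgA-KO. Its groups did not overlap, and its log2 fold change of 0.99 did not pass the test (edgeR adjusted p = 0.137). Of the tested genes of this list, 3 had a negative log2 difference, and they stood at far higher levels in liver than the rest; they are named here after their values were seen. G0s2 was at 184, 135 and 82.8 CPM in WT and at 84.4, 17.6 and 46.6 CPM in CgA-KO (-1.44, edgeR adjusted p = 0.10, DESeq2 adjusted p = 0.0184). Wfdc21 differed by -0.92 (edgeR adjusted p = 0.207) and Lrg1 by -0.09 (edgeR adjusted p = 0.902).

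The partners of the members are the ligands, receptors, adaptors and inhibitors that act with them. Of 20 such genes, 14 were tested, 7 were called higher and 0 lower, with a median log2 fold change of 1.85. Beside them stand 8.60% higher and 3.84% lower over all genes tested. Tyrobp, the adaptor of Trem1 and of many myeloid receptors, rose by 2.47 (edgeR adjusted p = 0.0049). Tlr4, a receptor through which calprotectin signals, rose by 2.68 (edgeR adjusted p = 0.0142). Il1b, the cytokine that Il1r2 captures, rose by 2.41 (edgeR adjusted p = 0.0149), and Il1rn, the interleukin-1 receptor antagonist, rose by 1.93 (edgeR adjusted p = 0.0122). The genes of the signalling receptor of interleukin-1 did not pass the test in edgeR and are named after their values were seen. Il1r1 was at 62.4, 45.7 and 92.2 CPM in WT and at 17.2, 27.7 and 44.2 CPM in CgA-KO, lower without overlap (-1.17, edgeR adjusted p = 0.0681, DESeq2 adjusted p = 0.0153). Its co-receptor Il1rap differed by -0.67, also without overlap (edgeR adjusted p = 0.106, DESeq2 adjusted p = 0.0578). Every CgA-KO liver lay below every WT liver in 14.6% of all genes tested. The histamine receptor Hrh2 rose by 3.45 (edgeR adjusted p = 0.0117), but it passed the filter through the CgA-KO libraries alone. Treml4, from the family of Trem1, rose by 3.33 (edgeR adjusted p = 0.0024). Csf3, which encodes G-CSF, had 0 counts in every library, which allows up to 0.269 CPM in the shallowest. Timp1, an inhibitor of Mmp9, had 6, 10 and 8 counts in WT and 7, 7 and 11 in CgA-KO and was not tested. Hnmt, which inactivates histamine, differed by -0.43 on the log2 scale (edgeR adjusted p = 0.287).

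Of 10 genes that attract neutrophils or receive such signals, 8 were tested, 3 were called higher and 0 lower. Over all genes tested, 8.60% were called higher and 3.84% lower. C5ar1, the receptor of the complement fragment C5a, rose by 3.40 (edgeR adjusted p = 0.0030), Ccl4 rose by 2.94 (edgeR adjusted p = 0.0210) and Ccl3 by 2.09 (edgeR adjusted p = 0.0348). Ccl4 passed the filter through the CgA-KO libraries alone. Cxcl1, a ligand of Cxcr2, was at 11.3, 13.5 and 9.66 CPM in WT and at 10.3, 9.42 and 8.16 CPM in CgA-KO, a difference of -0.30 on the log2 scale (edgeR adjusted p = 0.391). Cxcl2, another ligand, had a log2 fold change of 1.78 and overlapping groups (edgeR adjusted p = 0.121). Of 5 relatives of Ly6g on chromosome 15, 4 were tested and 2 were called higher: Ly6a by 3.49 (edgeR adjusted p = 0.0062) and Ly6e by 1.86 (edgeR adjusted p = 0.0072). Ly6c2, a gene of classical monocytes, had 23, 21 and 44 counts in WT and 98, 2864 and 98 in CgA-KO (log2 fold change 4.41, edgeR adjusted p = 0.0715), and Ly6c1 differed by 1.55 on the log2 scale (edgeR adjusted p = 0.229). Members of this family are alike in sequence, so reads could be assigned to the wrong one.

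Markers of other cells that carry some of the members were measured beside them. Over all genes tested, edgeR called 8.60% higher and 3.84% lower. At an unadjusted p under 0.05, 17.2% were higher and 11.9% lower. Of 7 classical monocyte genes, 3 were called higher, among them Ccr2, the receptor that brings monocytes out of the marrow (log2 fold change 3.39, edgeR adjusted p = 0.0032), and Ms4a4c (4.25, edgeR adjusted p = 0.0043). Ms4a4c passed the filter through the CgA-KO libraries alone. Of 6 Kupffer cell genes, 5 were called higher, with a summed level of 83.1 to 174 CPM in WT and 788 to 1206 CPM in CgA-KO. Clec4f, the lectin that defines Kupffer cells in the mouse, rose by 2.96 (edgeR adjusted p = 0.0122). Of 8 mast cell and basophil genes 1 was tested, and 0 were called by edgeR, DESeq2 or limma-voom or had an unadjusted p under 0.05 in edgeR. Their summed level was 3.94 to 6.36 CPM in WT and 3.53 to 4.63 CPM in CgA-KO. Most of that sum was Kit, the tested gene, named after its values were seen. Kit was at 5.91, 3.06 and 3.81 CPM in WT and at 3.34, 2.98 and 3.54 CPM in CgA-KO. The sum therefore says little of the rest of the list. Cpa3 had 0, 11 and 0 counts in WT and 1, 22 and 1 in CgA-KO, Mcpt4 had 0, 6 and 0 against 1, 0 and 0, and Mcpt8 had 1, 3 and 1 against 1, 19 and 2. Of 4 eosinophil genes 0 were tested, for low counts. The eosinophil peroxidase gene Epx had 0 counts in WT and 0, 4 and 0 in CgA-KO. In the other 3, named after their values were seen, every CgA-KO liver lay above every WT liver in CPM, as in 19.0% of all genes tested. Prg2 had 0 counts in WT and 2, 15 and 4 in CgA-KO, Siglecf had 2, 1 and 4 against 4, 12 and 20, and Ccr3 had 1, 1 and 1 against 6, 10 and 317. For Siglecf the margin was only 0.186 CPM in CgA-KO replicate 1 over 0.179 CPM in WT replicate 1, whose limit of detection was 0.269 CPM. Of 4 platelet genes 3 were tested and 0 were called by edgeR, DESeq2 or limma-voom, while 2 had an unadjusted p under 0.05 in edgeR, and Itga2b differed by 1.04 on the log2 scale (edgeR adjusted p = 0.204). The other tested platelet genes, named after their values were seen, were Pf4 with a difference of 2.75 and overlapping groups (edgeR adjusted p = 0.0768) and Gp9 with 2.16 and no overlap (edgeR adjusted p = 0.0961). Red cell genes, a sign of blood in the piece, summed to 118 to 291 CPM in WT and 333 to 476 CPM in CgA-KO. Of these, Hba-a2 rose by 1.42 (edgeR adjusted p = 0.0452), Alas2 fell by 1.09 (edgeR adjusted p = 0.0287) and Hba-a1 differed by 1.20 (edgeR adjusted p = 0.0573), and reads of the near-identical Hba-a1 and Hba-a2 could be split wrongly between them. The parts of monocytes, Kupffer cells, eosinophils, platelets and blood in the members' difference were not tested. Hepatocyte genes summed to 54059 to 93634 CPM in WT and 45124 to 81428 CPM in CgA-KO, so the labelled tissue carried its defining markers. Of the 6 hepatocyte genes, 0 were called by edgeR, 1 by DESeq2 and 1 at an unadjusted p under 0.05 in edgeR, and Alb, albumin, differed by -0.23 on the log2 scale (edgeR adjusted p = 0.743).

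Few of these calls outside the Kupffer cell list held when any 1 library was left out. Called in all 6 such fits were Slfn4 of the other neutrophil genes, Lcn2 of the precursor genes, Tyrobp and Treml4 of the partners, C5ar1 of the attractants, Ly6e of the Ly6g relatives, Ccr2 and Ms4a4c of the monocyte genes, Laptm5 of the leukocyte genes and 4 of the 5 called Kupffer cell genes. Over these fits 2 to 5 of the leukocyte genes, 2 to 7 of the other neutrophil genes, 3 to 9 of the partners and 1 to 3 of the attractants were called. Of the members, 0 were called in all 6 fits, and the share of all genes called in all 6 is not given here. In edgeR's test of all libraries, 8 members were higher at an unadjusted p under 0.05, beside 17.2% of all genes.

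The order of the members was compared per kilobase of annotated exon. In CgA-KO, S100a9 was at 72.8 ± 72.1 and S100a8 at 34.4 ± 33.8 CPM per kb (SD, n = 3), and these 2 overlapped each other. Below them, without overlap, came Csf3r at 5.31 ± 3.27 and Retnlg at 4.84 ± 2.36 CPM per kb, which overlapped. Mmp9 at 1.25 ± 0.542 and Mmp8 at 1.02 ± 0.784 CPM per kb followed, again below Retnlg without overlap and overlapping each other. The lowest were Trem1 at 0.440 ± 0.032, Hdc at 0.415 ± 0.134, Il1r2 at 0.331 ± 0.033 and Ly6g at 0.244 ± 0.260 CPM per kb, each overlapping its neighbour. In WT the order began with S100a9 at 6.05, S100a8 at 2.42 and Csf3r at 1.42 CPM per kb and ended with Il1r2 at 0.0305 CPM per kb, and every pair of neighbours in it overlapped.

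Among the 8 genes whose log2 CPM followed the mean log2 CPM of the members most closely over the 6 libraries were Lgmn, Metrnl, Crybg1, Ly6e, Pld3, Fbln5 and Tmem71. Their Pearson r ranged from 0.996 to 0.9995. The 6 points share 2 genotypes, their libraries and their depths, so these values are a description. Lgmn, the lysosomal protease legumain, had 541, 1150 and 712 counts in WT and 3372, 6859 and 3153 in CgA-KO.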

How the data were processed

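Poly(A)-selected RNA of 6 mouse livers was sequenced as paired ends. The authors quantified the reads with Salmon 1.4.0 against the GRCm38 transcriptome, and DESeq2 is also named in the submitters' processing notes. The deposited table holds counts, whole numbers per gene symbol without normalization; how transcripts were summed to genes is not given in the sources used here. Of its 32212 rows, 12519 were at 0 in every library.

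Genotypes were compared in edgeR 4.0.16 (R 4.3.3) with filterByExpr with a minimum count of 10, TMM factors of 0.756 to 1.12, robust quasi-likelihood fits over all 13867 genes that passed, and Benjamini-Hochberg adjustment. The SE of a log2 fold change is its size divided by the square root of F, an approximation. Exact permutation tests were two-sided. Alternatives were DESeq2 1.42.0, limma-voom (limma 3.58.1), other scalings and filters, a replicate block, a threshold of 0.01 and fits without 1 library; DESeq2 without its outlier screen was chosen after seeing the data. The edgeR, DESeq2 and limma-voom fits at their main settings were tested on simulated data, and the other steps were not.

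The 10 members and the 13 companion lists (110 genes) were chosen with earlier results of these data known. Il1b, Cxcr2, Chil3 and Ly6c2 each stand in more than a single list and are counted in each. Named genes were the members, up to 5 called genes per list by smallest adjusted p, a fixed set of markers and partners, and the 8 genes most like the members' mean. Some genes that this choice includes are not reported here. Figures were drawn with matplotlib 3.10.9.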

Additional observations from a re-analysis of the deposited data

How the results depend on the processing

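The number of genes called, 1726 in edgeR, was 2592 in DESeq2, 2606 in DESeq2 without its outlier screen, 360 at an adjusted p under 0.01, and between 394 and 2126 in the fits without 1 library. Of the members, 7 were called in edgeR and between 0 and 6 without 1 library. With at least 10 counts required in every library, 4 members were left and 2 were called (S100a8 and S100a9), and with all genes of at least 1 count kept, 5 were called, with S100a8 and S100a9 at adjusted p of 0.0924 and 0.179. At an adjusted p under 0.01, edgeR and limma-voom called 0 members and DESeq2 called 7, beside 1.91%, 2.87% and 7.48% of all genes called higher by edgeR, limma-voom and DESeq2. With relative log expression, upper-quartile factors or library size alone as the scaling, 7 members were called. Under library size alone, 9.32% of all genes were called higher, and over all genes the median log2 difference was 0.26. Of the companion genes 36 were called, with 14 at the 0.01 threshold and between 16 and 36 without 1 library. Of the named genes, the log2 fold change changed sign for Alb (0.082 with library size alone; -0.40 to 0.0053 without 1 library), Lrg1 (0.18 with library size alone; -0.42 to 0.27) and Marco (-0.89 in limma-voom, -0.86 with the replicate block; -3.43 to 2.69). Without 1 library it also changed sign for Timp3, Apoa1, Cps1, Cyp2e1 and Serpina1a, with values from -0.54 to 0.22. None of these genes was called, and the cause was not tested. The correlations of same-numbered deviations from the genotype means were 0.199, 0.0127 and -0.0659. They were not set against those of differently numbered livers, so they cannot decide whether replicate numbers pair the livers. With the number as a block, 1498 genes (7.88% higher), 7 members (Csf3r gained, Il1r2 lost) and 35 companion genes were called. Depth limits Ly6g, Il1r2, Trem1 and Mmp8, whose WT libraries held at most 7 counts each.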

Other observations

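Genes with a high level in a single liver did not all share that liver; these were chosen after their values were seen. Marco, a scavenger receptor of macrophages, had 15, 105 and 337 counts in WT and 3, 1810 and 24 counts in CgA-KO replicates 1, 2 and 3. Ccr3, a chemokine receptor of eosinophils, had its high value of 317 counts in CgA-KO replicate 3 rather than in replicate 2.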
